A study of Mus musculus with 10 samples.

Results

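Genes that mark periportal hepatocytes, the liver cells around the portal tract, were followed, 10 in all, in the livers of old mice with and without arginase 2 in hepatocytes. The genes are Hsd17b13, Aldh1b1, Hal, Sds, Gls2, Etnppl, Cdh1, Uroc1, Spp2 and Serpina1b. The members were taken by symbol from a table of 55487 genes, in which each of the 10 symbols stood for 1 gene, and all 10 were among the 15894 genes with enough counts to be tested. Poly(A) RNA of whole liver was sequenced in 5 libraries of LKO mice, which lack Arg2 in hepatocytes, and 5 libraries of Flox mice, Arg2fl/fl littermates of the LKO mice with both Arg2 alleles floxed and not deleted. All mice were of the strain C57B/6J as labelled, 22 months old, co-housed and fed normal chow. The promoter that drives the deletion is not given in the sources used here. LKO titles run from 6 to 10 but LKO columns from 1 to 5, so LKO libraries are called here by column number; Flox numbers are the same in both. Whether every library is a mouse of its own is not stated, so p-values cover the spread between libraries only, which may be partly technical.

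Blood enters the liver lobule at the portal tract and leaves at the central vein, and hepatocytes along that path divide their work. Periportal hepatocytes are known for gluconeogenesis, ureagenesis and the breakdown of amino acids such as histidine, serine and glutamine. Pericentral hepatocytes make glutamine and express genes that depend on Wnt and beta-catenin signalling. Arginase 2, in mitochondria, converts arginine to urea and ornithine.

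Library totals ranged from 43331354 to 54951415 counts, and 21937 to 23811 genes had a count. Arg2 had 0, 0, 0, 4 and 6 counts in LKO libraries 1 to 5, against 0, 4, 0, 5 and 0 counts in Flox 1 to 5, which is 10 counts in LKO and 9 in Flox in all. A count of 0 allows up to 3 counts in a library. At this depth no difference in Arg2 was detectable, so the deletion is not checked by it. Values below are CPM, counts scaled to the library total with TMM factors, a normalization that aligns the bulk of genes between libraries.

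Measured per length of annotated exon, the members covered a wide range of levels. Serpina1b, one of the mouse genes for the protease inhibitor alpha-1-antitrypsin, stood at 2143 ± 215 RPKM (CPM per kilobase of exon) in LKO and 1804 ± 352 RPKM in Flox (SD, n = 5 each here and below). Hsd17b13 followed at 197 ± 21.3 RPKM in LKO and 142 ± 21.6 RPKM in Flox. Uroc1, Gls2, Hal, Spp2, Aldh1b1 and Sds came next, with mean levels of 145 to 50.6 RPKM in LKO and 113 to 27.9 RPKM in Flox, and in LKO the ranges of 1 SD of each neighbouring pair in this order overlapped. Etnppl, at 12.9 ± 5.1 RPKM in LKO and 5.87 ± 3.90 RPKM in Flox, and Cdh1, at 5.79 ± 6.19 RPKM in LKO and 1.76 ± 1.72 RPKM in Flox, were the lowest, and their LKO ranges of 1 SD overlapped too. In Flox the order was the same except that Sds stood above Aldh1b1.

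Upstream sequence is shown for the member whose groups did not overlap, for the member that opens histidine breakdown and for the most abundant member. Each run is the 250 bases before the RefSeq start in GRCm38.p6, and 7 of the 10 members had such an entry. Capitals mark matches, on either strand, to 5 motifs spelled out after the sequences.
Hsd17b13, chr5:103977389-103977638, minus strand: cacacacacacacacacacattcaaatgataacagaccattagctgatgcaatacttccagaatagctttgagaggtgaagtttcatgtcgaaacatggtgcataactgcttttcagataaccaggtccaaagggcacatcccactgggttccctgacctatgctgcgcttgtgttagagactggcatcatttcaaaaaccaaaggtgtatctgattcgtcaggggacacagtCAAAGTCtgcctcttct
Hal, chr10:93488518-93488767, plus strand: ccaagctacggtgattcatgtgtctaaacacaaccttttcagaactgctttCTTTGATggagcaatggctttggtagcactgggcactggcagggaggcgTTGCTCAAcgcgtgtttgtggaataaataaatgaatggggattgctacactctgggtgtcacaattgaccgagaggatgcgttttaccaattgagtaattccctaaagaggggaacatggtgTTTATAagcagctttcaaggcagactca
Serpina1b, chr12:103738190-103738439, minus strand: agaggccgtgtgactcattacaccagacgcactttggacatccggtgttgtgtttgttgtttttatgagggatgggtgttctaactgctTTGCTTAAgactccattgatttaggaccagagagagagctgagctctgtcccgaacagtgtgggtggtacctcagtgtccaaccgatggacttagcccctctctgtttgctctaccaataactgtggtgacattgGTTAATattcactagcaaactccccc

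The core of the HNF4 motif was searched as CAAAGTC, which Hsd17b13 held 17 bases before its start and which 3.84% of 32817 such windows in the RefSeq table held. The core of the TCF motif, the site through which beta-catenin acts, was searched as CTTTGAT and was found in Hal and in 3.21% of windows. The C/EBP motif was searched as TTGCNNAA and was found in Hal, in Serpina1b and in 9.57% of windows. The HNF1 motif was searched by its GTTAAT portion, which Serpina1b, Etnppl and 6.44% of windows held. The TATA box was searched as TATAAA and was found on the opposite strand in Hal, and in 12.4% of windows. The core of the cAMP response element was searched as TGACGT, which 6.46% of windows and 0 of the 7 members with an entry held. None of the motifs was shared by more than 2 members.

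All 10 members had higher mean levels in LKO than in Flox, and none passed the test across all genes. In bulk liver RNA, fewer cells of a type and less RNA per cell cannot be told apart. Their median log2 fold change was 0.46, beside -0.01 over all 15894 genes tested, of which 48.4% had a fold change above 0. By edgeR's quasi-likelihood test 0 members and 0 of all genes (0%) passed an adjusted p of 0.05, the smallest being 0.652. Without adjustment edgeR put 1193 genes (7.51%) under 0.05. DESeq2 called 11 genes (1380 at an unadjusted p under 0.05) and limma-voom 0 (1049), and no member was called by either. Hsd17b13, Aldh1b1, Hal, Uroc1 and Gls2, 5 of the 10 members, had an unadjusted p under 0.05 on the higher side, beside 3.17% of all genes. The members were chosen with earlier results of these data known, so these counts describe them and support nothing.

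**Figure D1:**
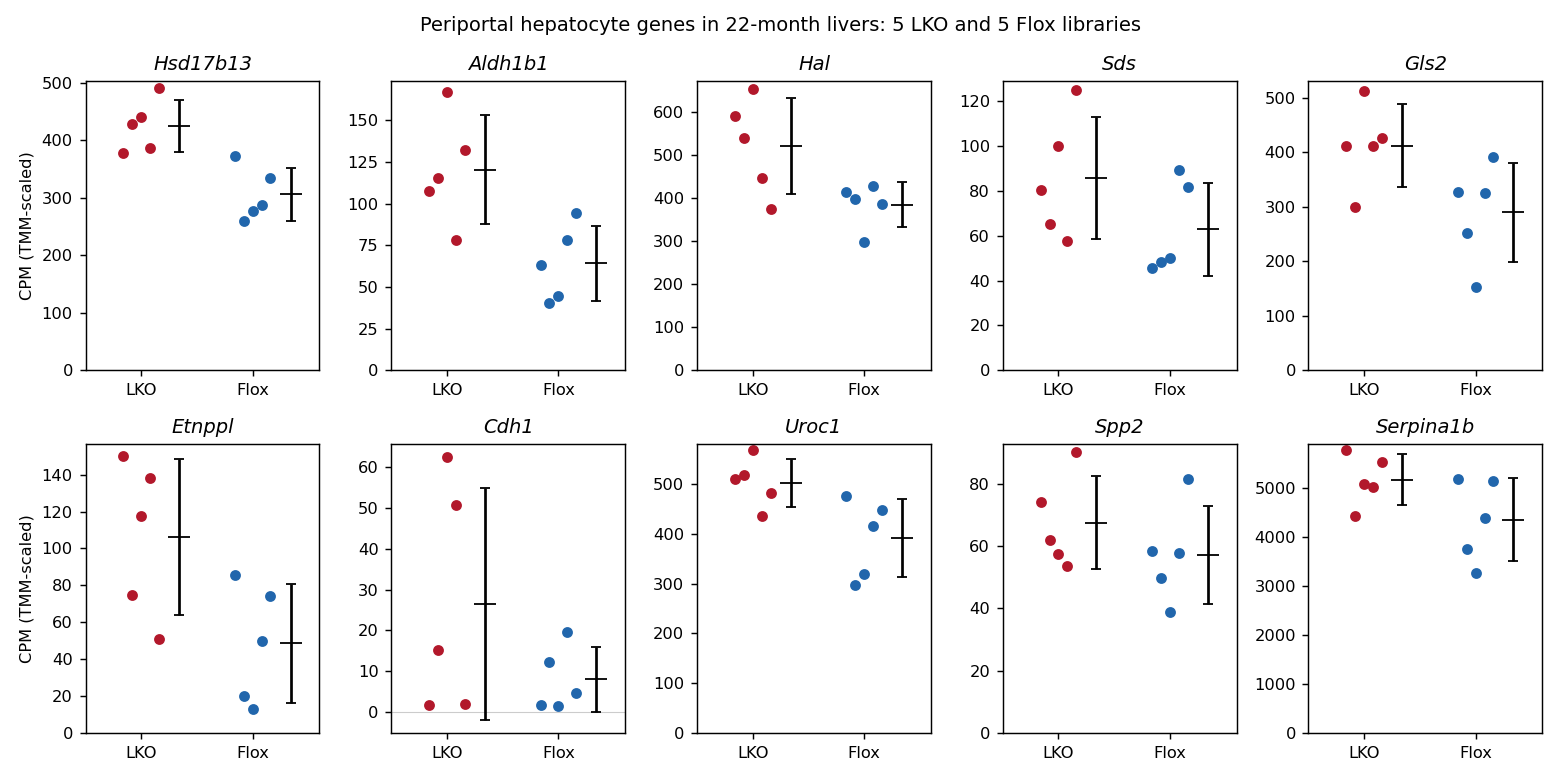
Level of each periportal member (y axis, TMM-scaled CPM) in 5 LKO (red) and 5 Flox (blue) libraries; points are libraries, and black bars are the mean and SD, which for Cdh1 in LKO reach below 0. The groups are apart for Hsd17b13 (377 CPM or more in LKO, 373 CPM or less in Flox) and overlap for the other 9 genes, while the Cdh1 points spread from 1.46 to 62.5 CPM.

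Hsd17b13 encodes a protein of hepatocyte lipid droplets, and was the member whose groups did not overlap. It was at 377, 428, 440.1, 386 and 492 CPM in LKO 1 to 5, against 373, 259, 277, 287 and 334 CPM in Flox 1 to 5. Every LKO library lay above every Flox library, although LKO 1 and Flox 1 were close. Non-overlap on the higher side held for 1 of 10 members and for 0.535% of all genes. The mean was 425 ± 45.9 CPM in LKO and 306 ± 46.6 CPM in Flox, a log2 fold change of 0.47 ± 0.13 (SE; edgeR unadjusted p = 0.00305, adjusted p = 0.652). The smallest adjusted p of any member by DESeq2 was also that of Hsd17b13 (0.109). The gene lies on chromosome 5, 103955440 to 103977410 (GRCm38).

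Aldh1b1, a mitochondrial aldehyde dehydrogenase, was the member with the next smallest p. Its levels were 108, 115, 167, 78.4 and 132 CPM in LKO 1 to 5, against 63.3, 40.5, 44.8, 78.1 and 94.4 CPM in Flox 1 to 5. LKO 4 lay among the Flox values and the other 4 LKO libraries stood above all of them. The mean was 120.2 ± 32.7 CPM in LKO and 64.2 ± 22.6 CPM in Flox (log2 fold change 0.90 ± 0.26 SE; edgeR adjusted p = 0.652). Of 13 other aldehyde dehydrogenases 12 were tested, and all 12 had fold changes above 0, with a median log2 fold change of 0.11. An unadjusted p under 0.05 was found for 1 of the 12, beside 3.17% of all genes on the higher side. That was Aldh1l2, a mitochondrial folate enzyme of very low level (0.368 ± 0.108 CPM in LKO, 0.198 ± 0.0587 CPM in Flox).

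Histidine breakdown was represented by its first and second enzymes. Hal, histidine ammonia-lyase, which turns histidine into urocanate, was at 590.2, 541, 655, 446 and 375 CPM in LKO 1 to 5, against 414, 399, 297, 428 and 387 CPM in Flox 1 to 5. The LKO libraries spread more widely than the Flox libraries, and LKO 5 lay below 4 of the 5 Flox values. Uroc1, urocanase, which takes urocanate on, was at 510.0, 519, 568, 436 and 481 CPM in LKO 1 to 5, against 475, 298, 320.0, 416 and 448 CPM in Flox 1 to 5. Here Flox 2 and 3 stood below the rest. The log2 fold changes were 0.44 ± 0.16 for Hal and 0.36 ± 0.15 for Uroc1 (SE; edgeR adjusted p = 0.652 each). Of the next enzymes of the pathway, Amdhd1, which opens the imidazolone ring, was at 314 ± 42.3 CPM in LKO and 254 ± 57.0 CPM in Flox. Ftcd, which passes the one-carbon unit to folate, was at 375 ± 49.8 CPM in LKO and 312 ± 55.8 CPM in Flox. Their log2 fold changes, 0.31 ± 0.16 and 0.27 ± 0.15 (SE), lay within 1 SE of that of Uroc1. All 4 steps had means on the same side and none passed.

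Sds, serine dehydratase, which makes pyruvate from serine, was at 80.6, 65.5, 100.2, 57.5 and 125 CPM in LKO 1 to 5, against 45.6, 48.3, 50.2, 89.2 and 81.8 CPM in Flox 1 to 5. Flox 1, 2 and 3 were the lowest libraries, while Flox 4 and 5 lay among the LKO values (log2 fold change 0.44 ± 0.26 SE; edgeR adjusted p = 0.662). Without LKO 5 the log2 fold change was 0.27. The same 3 Flox libraries were low for Dbp, an output gene of the circadian clock, chosen after its values were seen. Dbp was at 3.13, 35.0, 41.1, 34.4 and 110.8 CPM in LKO 1 to 5, against 0.798, 1.68, 1.96, 47.3 and 90.9 CPM in Flox 1 to 5. With Dbp as a covariate the Sds log2 fold change was 0.22 ± 0.20 (SE), and that of Cdh1, described below, 1.08 ± 1.41. All 10 members stayed above 0 in that fit, with a median log2 fold change of 0.42, beside 0.46 without the covariate. The values of Hal (0.46) and Etnppl (1.13) did not fall, and those of the other members were lower. The part of clock phase in these differences was not tested otherwise. Exons of Plbd2 on the opposite strand cover 21.2% of the exon bases of Sds, and those of the antisense gene Gm15690 8.32%, so reads of these genes cannot be told apart without strand.

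Gls2, the liver glutaminase that frees ammonia from glutamine for the urea cycle, was at 411, 299, 512, 411 and 427 CPM in LKO 1 to 5, against 327, 252, 152, 324 and 390.0 CPM in Flox 1 to 5. Flox 3 was the lowest of the 10 libraries, and LKO 2 lay below 3 Flox libraries (log2 fold change 0.51 ± 0.23 SE; edgeR adjusted p = 0.652). Etnppl, which breaks down phosphoethanolamine, had the second largest fold change and a wide spread. It was at 150, 75.0, 117, 138 and 51.0 CPM in LKO 1 to 5, against 85.7, 19.8, 12.9, 49.7 and 74.4 CPM in Flox 1 to 5. Flox 2 and 3 stood far below the other 8 libraries, among which the groups overlapped (log2 fold change 1.13 ± 0.53 SE; edgeR adjusted p = 0.652). Both genes had their lowest values in Flox 2 and 3.

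The secreted proteins had the smallest fold changes. Spp2, a liver-secreted phosphoprotein found in bone, ranged from 53.7 to 90.3 CPM in LKO and from 38.8 to 81.5 CPM in Flox (log2 fold change 0.24 ± 0.20 SE; edgeR adjusted p = 0.742). Serpina1b ranged from 4436 to 5786 CPM in LKO and from 3261 to 5193 CPM in Flox (0.25 ± 0.17 SE; edgeR adjusted p = 0.684). The Spp2 value was 0.12 without LKO 5, 0.13 without Flox 3 and 0.40 without Flox 5, and that of Serpina1b 0.16 without Flox 3. Both genes were lowest in Flox 3, next lowest in Flox 2, and overlapped widely between the groups. Of the distinct runs of 50 bases in Serpina1b transcripts, 29.5% also occur in transcripts of other genes, among them its copies Serpina1a, Serpina1c, Serpina1d and Serpina1e, so its reads may be split or lost. The 4 copies also had fold changes above 0 (median log2 fold change 0.23) and none passed. For the 9 other members that share was at most 1.28%, except for Sds at 21.2%, where the shared runs come from the overlapping genes.

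Cdh1, the adhesion protein E-cadherin, which joins epithelial cells and is held by periportal hepatocytes and bile ducts, behaved unlike the other members. It was at 1.84, 15.3, 62.5, 50.6 and 2.10 CPM in LKO 1 to 5, against 1.83, 12.4, 1.46, 19.7 and 4.77 CPM in Flox 1 to 5. Low and high libraries occurred in both groups, and the highest was 42.7 times the lowest. A range at least that wide was found in 58 of 11002 other genes with an average log2 CPM of at least 1 (0.527%). The log2 fold change of 1.72 was the largest among the members, with an SE of 1.10 (edgeR adjusted p = 0.680), and it was 1.11 without LKO 3 and 2.37 without Flox 4. The 9 bile duct markers together stood at 45.4 to 58.7 CPM in LKO and 46.8 to 58.4 CPM in Flox, with Epcam at 0.483 CPM in LKO and 0.468 CPM in Flox. Their sums were highest in LKO 3 and Flox 3, the libraries with the highest and the lowest Cdh1 level. Of the 7 tested, 5 had fold changes above 0, 2 below, and none passed, and none of the 9 was at 0 in every library.

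**Figure D2:**
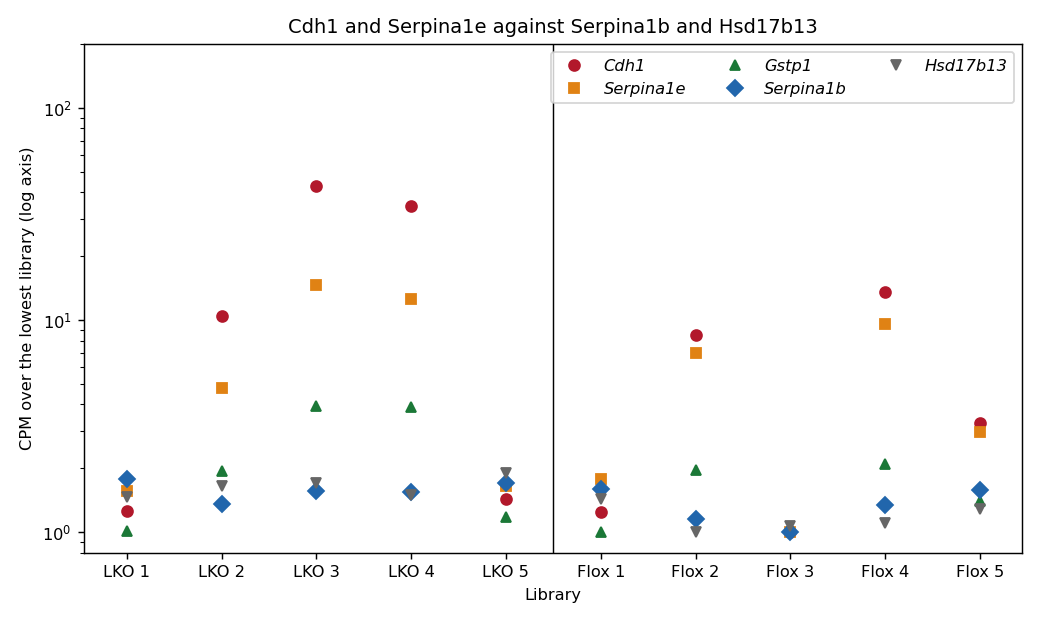
CPM of 5 genes in each library over the gene's lowest library (y axis, log scale), with LKO libraries on the left and Flox libraries on the right. Cdh1 (up to 42.7 times its lowest value) and Serpina1e (up to 14.6 times) are high and low in the same libraries of both groups, with Gstp1 (up to 3.94 times), while Serpina1b and Hsd17b13 stay within 1.77 and 1.90 times.

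The profile of Cdh1 over the libraries was nearest to that of Gstp1, a glutathione transferase with a near-identical copy in Gstp2, and of Serpina1e, an alpha-1-antitrypsin copy; this search was added after the Cdh1 values were seen. Likeness was the root mean square difference of log2 CPM scaled to SD units over the 10 libraries, which was 0.18 for Gstp1 and 0.19 for Serpina1e. Serpina1e was at 1154, 3534, 10760, 9310 and 1219 CPM in LKO 1 to 5, against 1322, 5171, 739, 7062 and 2191 CPM in Flox 1 to 5. LKO 2, 3 and 4 and Flox 2 and 4 held the 5 highest values of both Cdh1 and Serpina1e, which follows largely from the choice by likeness. By the same measure Cdh1 lay 1.19 SD from the mean profile of the other 9 members, whereas the other members lay 0.36 (Gls2) to 0.80 (Sds) SD from theirs.

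**Figure D3:**
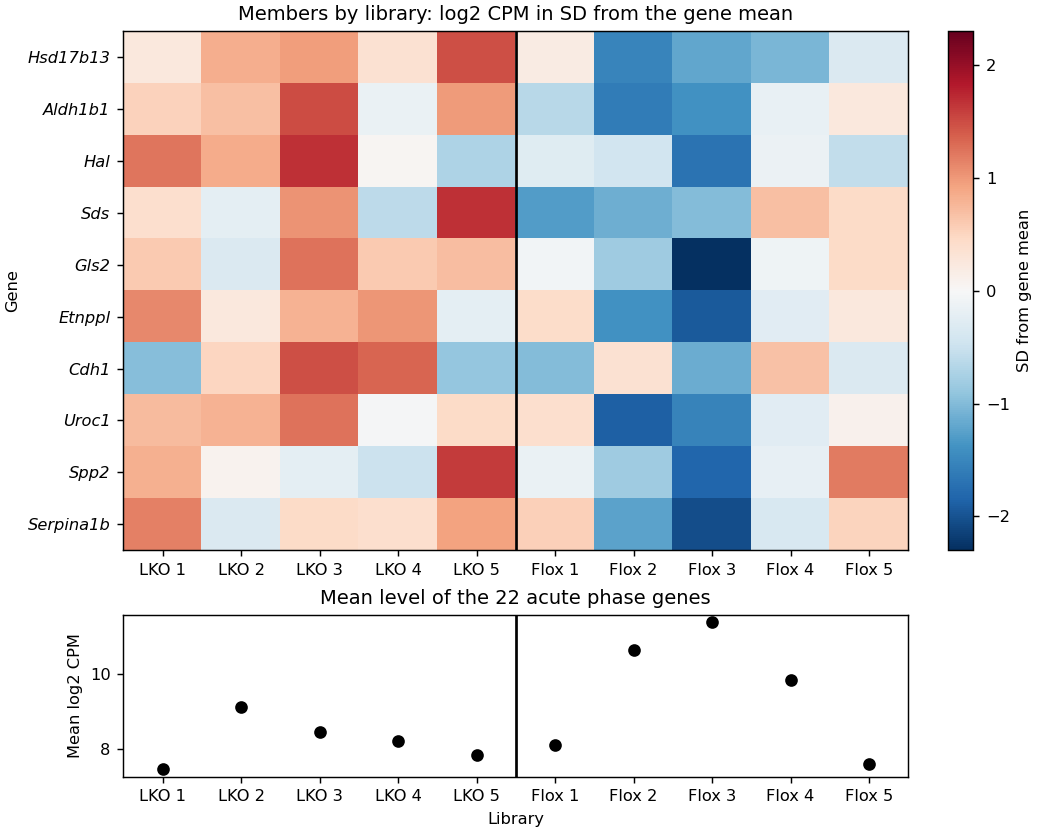
Upper panel: log2 CPM of each member (rows) in each library (columns) in SD from the gene's mean over 10 libraries. Lower panel: mean log2 CPM of 22 acute phase genes per library. Flox 2 and 3 are low for most members and have the highest acute phase levels, 10.6 and 11.4.

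The members shared many of their extremes. Flox 3 held the lowest value for 6 members and Flox 2 for 3, and the remaining member, Sds, was lowest in Flox 1. The highest value lay in an LKO library for all 10, namely LKO 3 for 5, LKO 5 for 3 and LKO 1 for 2. In SD units averaged over the members, the LKO libraries stood between 0.24 and 1.01 above the mean, against 1 Flox library above it (Flox 5, 0.20) and 4 below it, with Flox 2 at -1.05 and Flox 3 at -1.60. No LKO library lay below the mean by this measure.

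Acute phase genes, which hepatocytes express in inflammation, were highest in Flox 2 and 3, the libraries in which most members were lowest. The 22 genes of that list summed to between 23882 and 45544 CPM in LKO and between 23040 and 148110 CPM in Flox, where Flox 2 had 111120 and Flox 3 148110. All 22 had fold changes below 0, 15 of them with an unadjusted p under 0.05, beside 4.33% of all genes on the lower side. None passed edgeR's test (0 of 22), and none was at 0 in every library. Without Flox 2 and 3 all 10 members still had fold changes above 0, with a median log2 fold change of 0.30. In that fit 2 of them (Hsd17b13 and Aldh1b1) had an unadjusted p under 0.05. Beside them stood 3.12% of all genes, higher and lower sides together, against 7.51% counted that way with all 10 libraries. The log2 fold changes of Hsd17b13 (0.36), Hal (0.35), Aldh1b1 (0.61) and Cdh1 (1.58) were smaller by less than 1.5 times. The log2 fold changes of Gls2 (0.25), Uroc1 (0.17), Etnppl (0.61), Sds (0.24), Serpina1b (0.07) and Spp2 (0.03) were smaller by more than 1.5 times. With the mean level of the acute phase list as a covariate the members' median was 0.32, and the value for Spp2 turned to -0.03. There 2 members had an unadjusted p under 0.05, beside 2.86% of all genes, both sides together. Since the acute phase level itself differed between the groups, its effect and that of the deletion cannot be told apart in that fit. The count of 5 members under an unadjusted p of 0.05 was 2 without LKO 3 (5.59% of all genes, both sides together). It was 3 without LKO 1 (5.9%), Flox 2 (6.31%) or Flox 3 (3.55%).

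**Figure D4:**
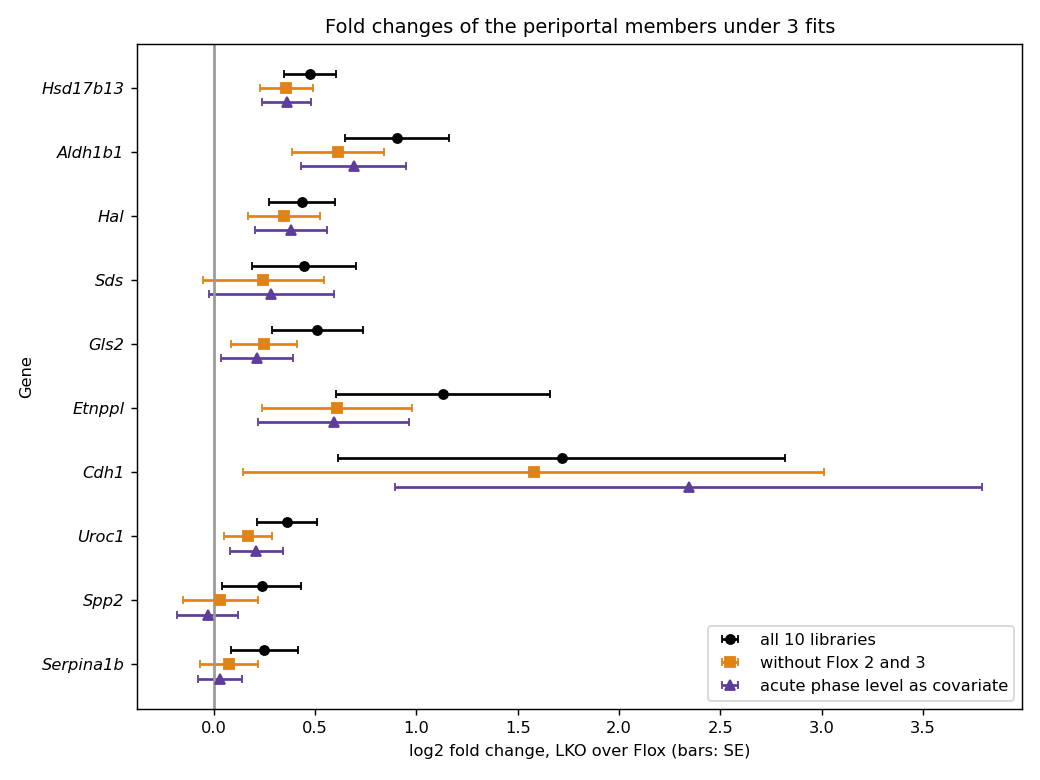
Log2 fold change of each member, LKO over Flox (x axis, with SE bars), with all 10 libraries (black circles), without Flox 2 and 3 (orange squares) and with the acute phase level as a covariate (purple triangles). Hsd17b13 stays near 0.36 to 0.47 in the 3 fits, while Spp2 and Serpina1b lie between -0.03 and 0.07 in the 2 fits other than that with all libraries.

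Markers of other cells were summed in each library. Erythroid genes summed to 449 to 878 CPM in LKO and 224 to 397 CPM in Flox, and 5 T cell genes to 1.09 to 2.34 CPM in LKO and 1.23 to 5.35 CPM in Flox. All 5 erythroid genes had an unadjusted p under 0.05 on the higher side (3.17% of all genes) and 3 of the 5 T cell genes on the lower side (4.33%), none of them passed, and none was at 0 in every library. Endothelial genes summed to 51.6 to 75.3 CPM in LKO and 57.2 to 84.2 CPM in Flox. Of these, 1 of 5 was under an unadjusted p of 0.05, on the lower side (4.33% of all genes). Stellate cell genes summed to 136 to 212 CPM in LKO and 85.7 to 216 CPM in Flox, Kupffer cell genes to 39.1 to 375 CPM in LKO and 57.4 to 406 CPM in Flox, and neutrophil genes to 1.37 to 15.9 CPM in LKO and 0.603 to 14.4 CPM in Flox, with 0 genes under that p. The part of these cells in the members' values was not tested. Hepatocyte markers, mostly Alb, the gene of serum albumin, summed to 127090 to 154660 CPM in LKO and 55648 to 121730 CPM in Flox. Of these 6 markers, 5 had fold changes above 0 and 1 below, with a median log2 fold change of 0.16, beside 0.62 for Alb. Alb was the 1 marker with an unadjusted p under 0.05 (3.17% of all genes on the higher side), and 0 passed. The sum thus follows Alb and is no measure of hepatocyte share.

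Other periportal genes went mostly the same way as the members, with exceptions in gluconeogenesis. Of 16 tested, 0 passed, 12 had fold changes above 0 and 4 below, and the median log2 fold change was 0.27. Otc, the urea cycle enzyme that makes citrulline, was at 426 ± 44.6 CPM in LKO and 314 ± 69.8 CPM in Flox, and Hsd17b6, a steroid dehydrogenase, at 93.4 ± 41.1 CPM in LKO and 51.1 ± 17.6 CPM in Flox. Alb was at 108160 ± 8696 CPM in LKO and 70357 ± 23822 CPM in Flox, with no overlap of the groups. Non-overlap on the higher side held for 1 of the 16 and for 0.535% of all genes. Pck1, the gluconeogenic enzyme that makes phosphoenolpyruvate, lay on the other side, at 1382 ± 286 CPM in LKO and 1909 ± 464 CPM in Flox (log2 fold change -0.47 ± 0.20 SE, edgeR adjusted p = 0.652). These 4, 3 higher and 1 lower, were the ones with an unadjusted p under 0.05, beside 3.17% of all genes on the higher and 4.33% on the lower side.

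Pericentral genes had fold changes mostly below 0, 15 of 21 with a median of -0.32, and 0 passed. Lgr5, a receptor that amplifies Wnt signals, was at 3.57 ± 0.83 CPM in LKO and 5.85 ± 1.29 CPM in Flox, and Axin2, a feedback inhibitor and target of the Wnt pathway, at 5.06 ± 1.404 CPM in LKO and 9.34 ± 3.45 CPM in Flox. Sp5, another Wnt target, had a log2 fold change of -0.71 ± 0.23 (SE). An unadjusted p under 0.05 was found for 4 pericentral genes on the lower side, these among them, and for 0 on the higher side, beside 4.33% and 3.17% of all genes on those sides. The difference between the periportal and pericentral lists was not tested.

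**Figure D5:**
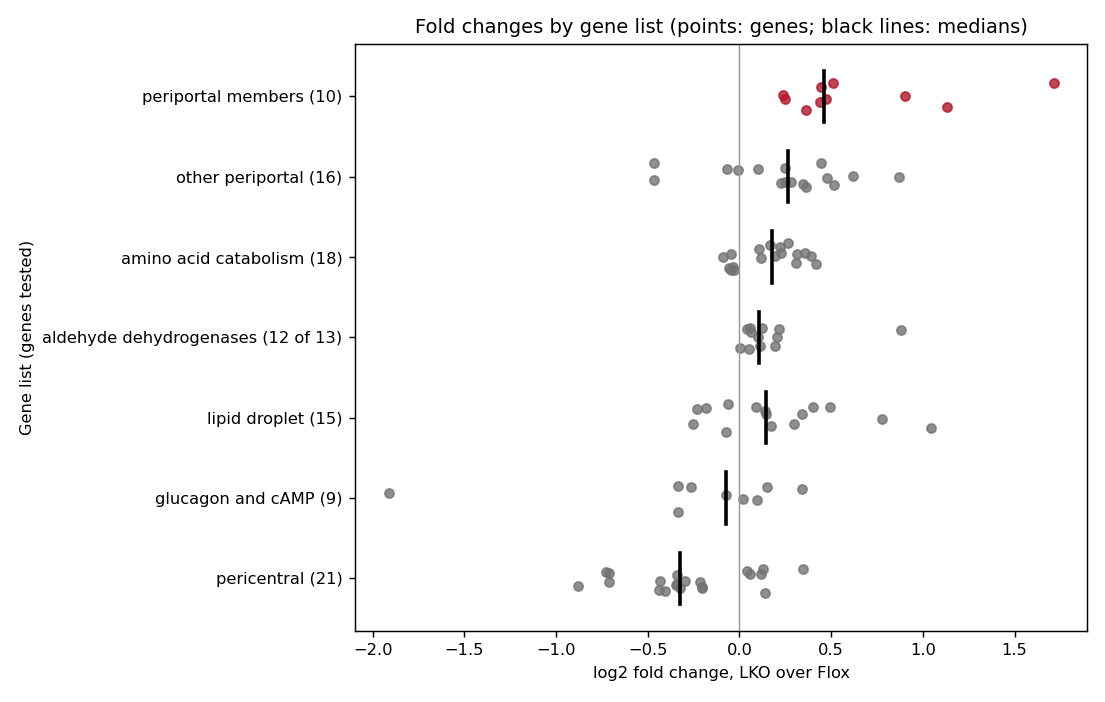
Log2 fold changes, LKO over Flox (x axis), of the tested genes of 7 lists (rows); each point is a gene and each black line the median of its list. The 10 members (median 0.46) lie above 0, as do 12 of 16 other periportal genes (median 0.27), while 15 of 21 pericentral genes (median -0.32) lie below 0.

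Regulators of zonation were measured as well, and 0 of 11 passed. Of the 11, 5 had fold changes above 0 and 6 below, with a median log2 fold change of -0.004. Ctnnbip1, an inhibitor of beta-catenin, was at 10.2 ± 1.56 CPM in LKO and 6.97 ± 0.40 CPM in Flox with no overlap, and Tcf7l1, a transcriptional repressor of Wnt targets, at 8.94 ± 1.64 CPM in LKO and 5.88 ± 1.33 CPM in Flox. Wnt2, a ligand made by endothelial cells of the liver, was at 0.595 ± 0.153 CPM in LKO and 1.23 ± 0.70 CPM in Flox. These 3, 2 higher and 1 lower, were the ones with an unadjusted p under 0.05, beside 3.17% of all genes on the higher and 4.33% on the lower side. Non-overlap on the higher side held for 1 of the 11 and for 0.535% of all genes.

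Genes around the members' pathways were counted in the same way. Of 18 other genes of amino acid breakdown, 0 passed and 12 had fold changes above 0 (median 0.18). Tdo2, which opens tryptophan breakdown, was the one with an unadjusted p under 0.05, beside 3.17% of all genes on the higher side. It was at 966 ± 118 CPM in LKO and 722 ± 152 CPM in Flox. Of 9 genes of glucagon and cAMP signalling, which drives periportal gluconeogenesis, 0 passed and 4 had fold changes above 0 (median -0.08). Gcgr, the glucagon receptor, was at 147 ± 17.7 CPM in LKO and 186 ± 22.7 CPM in Flox. Igfbp1, a secreted binder of insulin-like growth factors, was at 15.2 ± 2.71 CPM in LKO and 57.2 ± 79.7 CPM in Flox. In Flox its median was 31.6 CPM and Flox 1 alone was at 199 CPM. These 2 genes were the ones with an unadjusted p under 0.05, both on the lower side, beside 4.33% of all genes. Of 15 lipid droplet genes other than Hsd17b13, 0 passed and 10 had fold changes above 0 (median 0.14). Abhd5, the activator of the main triglyceride lipase, was the one with an unadjusted p under 0.05, beside 3.17% of all genes on the higher side. Its level was 21.1 ± 4.18 CPM in LKO and 15.96 ± 2.32 CPM in Flox.

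Outside the members, the gene whose profile was nearest to their mean profile was Alb, at a root mean square difference of 0.22 SD over 10 libraries, among 11002 candidates. Gusb, a lysosomal glucuronidase (0.25), Nr2c1, an orphan nuclear receptor (0.26), Enpp2, the secreted phospholipase D autotaxin (0.29), and Sp4, a transcription factor (0.29), followed. Nearest to Hsd17b13 alone were Car2, a carbonic anhydrase (0.33), Postn, a matrix protein (0.34), Micu2, a regulator of the mitochondrial calcium uniporter (0.35), Timp3, a protease inhibitor (0.37), and Fmo4, a flavin monooxygenase (0.43). Postn, for instance, was at 6.90 ± 1.87 CPM in LKO and 2.89 ± 1.63 CPM in Flox, and neither it nor any other of these 10 genes passed edgeR's test (adjusted p = 0.652 each).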

How the data were processed

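Poly(A) RNA (oligo-dT, per the labels' protocols) was sequenced in 10 liver libraries. The authors deposited raw read counts for each Ensembl gene, with no normalization, as the values show. Build GRCm38, featureCounts 1.4.6-p5, Subread, STAR 2.5.1a and bcl2fastq are named in the submitters' processing notes; the sources used here do not give strandedness, the annotation release or how reads with several matches were counted. Of 55774 lines, 287 were repeats of an identifier with identical counts and were dropped. No library pair agreed within sampling noise (mean chi-square per gene at least 37.0 over 45 pairs).

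Genes were kept by filterByExpr, scaled by TMM (factors 0.963 to 1.04) and tested with edgeR 4.0.16 (quasi-likelihood F test, robust, R 4.3.3), LKO against Flox with no covariate. P-values are two-sided and adjusted by Benjamini-Hochberg over all genes, with a threshold of 0.05. SEs were derived from the F statistic. DESeq2 1.42.0 and limma 3.58.1 were alternatives, beside other scaling, filters, left-out libraries and covariates. The fit was tested on simulated data with 200 changed genes. Profiles use log2 CPM with a prior count of 2. Positions and exon lengths are from GENCODE M21 and upstream sequences from RefSeq.

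The members and lists were chosen with earlier results of these data known. The text names the 10 members, up to 4 genes of each list by smallest unadjusted p, and the 5 genes nearest in profile to the members and to Hsd17b13. Dbp, Epcam and the genes nearest to Cdh1 were chosen after their values were seen. One gene that the rule names is not reported here. The floor given for a count of 0 covers counting error alone, as reads without molecular identifiers are not independent molecules.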

Additional observations from a re-analysis of the deposited data

Results flagged for a closer look

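Within a group of 5 libraries, 4 values of 48 genes named stood far from the rest, the gap to the nearest library taking more than 0.71 of the group's range. Chance gives such a gap in about 1 of 20 groups, and 96 groups were examined. Flox 3 was the highest Flox library for Hsd17b6 (81.1 CPM, the next at 47.8 CPM) and for Axin2 (15.3 CPM, the next at 8.95 CPM). Flox 1 was at 198.6 CPM for Igfbp1, the next at 32.4 CPM. LKO 1 was the lowest LKO library for Aldh1l2 (0.177 CPM, the next at 0.393 CPM). No value of the 10 periportal members stood out in this way.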

How the results depend on the processing

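Over 19 alternatives, the members' median log2 fold change ranged from 0.30 (without Flox 2 and 3) to 0.53 (without Flox 5), and from 0.37 to 0.53 when single libraries were left out. Each of the 10 members kept its direction and stayed past no threshold in 189 of 190 member results, the exception being Spp2, which turned to -0.030 with the acute phase covariate. The number of genes with an adjusted p under 0.05 stayed 0 except by DESeq2 (11), and the number at an unadjusted p ranged from 454 (acute phase covariate) to 2043 (no filter on low counts). The count of members under an unadjusted p of 0.05 was 2 without Flox 2 and 3, beside 3.12% of all genes, both sides together. It was 2 with the acute phase covariate (2.86%) and 3 with Dbp as a covariate (4.72%, added after seeing the data). When single libraries were left out, the count ran from 2 without LKO 3 (5.59%) to 7 without Flox 5 (11.7%). Over those fits the lowest share was 3.55%, without Flox 3. The cause was not tested. Library totals in place of TMM moved the median of all genes to -0.05 and that of the members to 0.42. The labels give the groups no shared replicate numbers, but the columns do. With the column number as a replicate block the members' median was 0.47, 5 members were under an unadjusted p of 0.05 and 0 genes were called; deviations of same-numbered columns correlated at 0.07 to 0.35, and 2 of 5 LKO columns matched their own number best, so the number was not treated as a pairing. The median SE over all genes was 0.18, and the members' own SEs ran from 0.13 (Hsd17b13) to 1.10 (Cdh1). Between libraries of a group, the members' median level had an SD of 0.25 in log2 units, beside their median log2 fold change of 0.46. Arg2 was too low at these depths to compare.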

Other observations

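Genes near to Cdh1 in profile were looked at further, all chosen after the values were seen. Of the 8 genes nearest to it among 11002, each had its 5 highest values in LKO 2, 3 and 4 and Flox 2 and 4. Since they were picked by likeness to Cdh1 over the same libraries, this follows largely from the choice. Selenbp2, a selenium-binding protein, ranged over 37.2 times between libraries, at 218 ± 228 CPM in LKO and 124 ± 136 CPM in Flox. Gstp1, at 708 ± 423 CPM in LKO and 445 ± 150 CPM in Flox, and Gstp2, at 70.0 ± 51.8 CPM in LKO and 42.5 ± 16.4 CPM in Flox, are near-identical copies, and how reads matching both were counted is not given in the sources used here. Setd7, a lysine methyltransferase, Tarbp1, an RNA methyltransferase, Armcx3, a mitochondrial protein, and Cobl, an actin nucleator, had smaller ranges, of 1.95 (Tarbp1) to 4.15 times (Setd7). None of the 8 passed edgeR's test of LKO against Flox (adjusted p = 0.671 to 0.822).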
